A study of Mus musculus with 24 samples.

Results

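The data described here compare liver sinusoidal endothelial cells (LSECs) of mouse embryos with and without a deletion of *Chd4* in endothelial cells. The members were chosen by their fraction and genotype labels as the 3 *Chd4-ECko* and the 3 control LSEC libraries, 6 of the 24 libraries of the series. The series sequenced poly-A RNA of LSECs and of the remaining non-endothelial (non-EC) liver cells at embryonic day 12.5 (E12.5) from 4 genotypes, with 3 libraries per group and 1 embryo per library. It asked which transcripts change in the liver vasculature when endothelial cells lose the chromatin remodelers CHD4, BRG1 or both. *Chd4-ECko* embryos were Brg1 fl/+;Chd4 fl/fl and carried the *VE-cadherin-Cre* transgene, so these mutants were also heterozygous for the floxed *Brg1* allele. Control embryos were Cre-negative and carried floxed alleles of both genes, so they lacked the transgene itself as well as the deletion. The *VE-cadherin* promoter directs Cre to endothelial cells but also to some blood cells of the fetal liver, the genetic background was mixed and the sex of the embryos was not labelled. LSECs were the cells that bound beads against CD146 (MCAM, an endothelial surface protein) after enzymatic digestion in the presence of transcription inhibitors and lysis of red cells. Non-EC cells were those left behind. Levels were deposited as TPM, a transcript level scaled to gene length and to the library total, and in such bulk data fewer cells of a type and less RNA per cell cannot be told apart.

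CHD4 is an ATP-dependent chromatin remodeler and the usual motor subunit of the NuRD complex, which combines nucleosome sliding with histone deacetylation and is best known for keeping genes of other lineages silent. LSECs line the blood channels of the liver and express scavenger and hyaluronan receptors. At midgestation the liver is also the main site of blood formation, so LSECs lie next to erythroid precursors, macrophages and hepatoblasts, and primitive red cells carrying embryonic globins still circulate.

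Depth could not be read from TPM, which sums to the same total in every library. Between 12746 and 12999 genes reached 1 TPM in the 6 libraries, and within a genotype the libraries correlated at 0.978 to 0.990 (Pearson's r across genes on the log2(TPM + 1) scale). Mitochondrial genes took 20.6 to 24.6% of TPM in controls and 31.5%, 20.4% and 14.1% in *Chd4-ECko* replicates 1, 2 and 3. Summed Y-linked transcripts were 1.34 TPM in *Chd4-ECko* replicate 3 and 60.1 to 134 TPM in the other 5 libraries. Endothelial identity was present in all libraries. *Cdh5*, which encodes VE-cadherin, measured 362, 368 and 297 TPM in controls and 314, 303 and 355 TPM in mutants, and *Lyve1*, the hyaluronan receptor of sinusoids, 573, 629.7 and 432 TPM and 541, 593 and 597 TPM. Markers of neighbouring cells were present as well. The 16 tested hepatoblast genes summed to 5094, 8244 and 4039 TPM in controls and 6547, 5177 and 4258 TPM in mutants, and the 16 stellate and mesenchymal genes to 2383, 1963 and 1937 TPM and 2235, 1541 and 2485 TPM, so the groups overlapped for both.

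*Chd4* itself was read at 285, 255 and 246 TPM in controls and at 223, 168 and 252 TPM in *Chd4-ECko* LSECs, with a log2 fold change of -0.30 (SE 0.17, adjusted p = 0.962). Replicates 1 and 2 lay below every control, and replicate 3 lay within the control range. These values cover the whole gene, so transcripts that lack only the floxed exons are still counted and the check of the deletion is a weak one. *Smarca4*, which encodes BRG1 and is heterozygous in the mutants, read 161, 144 and 134 TPM and 141, 99.9 and 140.4 TPM (log2 fold change -0.22, adjusted p = 1.0). None of the 15 tested NuRD genes passed the test in limma (0 at adjusted p under 0.05), and their log2 fold changes ran from -0.30 for *Chd4* to 0.55, with a median of 0.03 (-0.00367 to 0.12 with 1 library left out).

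With endothelial *Chd4* deleted, far more transcripts were higher than lower in LSECs. A differentially expressed gene (DEG) was a gene with a log2 fold change beyond 1 in either direction and a Benjamini-Hochberg adjusted p under 0.05 in limma on log2(TPM + 1). Of 13444 genes tested, 70 (0.521%) were DEGs, 66 higher (0.491%) and 4 lower (0.0298%), and 872 (6.49%) had an unadjusted p under 0.05. Among the genes as a whole the direction was even, with 51.6% positive and a median log2 fold change of 0.01. The DEGs that rose were mostly scarce in controls, where 38 of 66 averaged under 5 TPM and 11 averaged under 1 TPM. Only 8 of them averaged 20 TPM or more in controls, and 4 passed 100 TPM in mutants. The 3 embryonic globins, the carbonic anhydrase gene *Car1*, the X-linked tumor antigen gene *Trap1a* and the leukocyte gene *Ptprcap* were the 6 DEGs with the largest log2 fold changes.

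**Figure D1:**
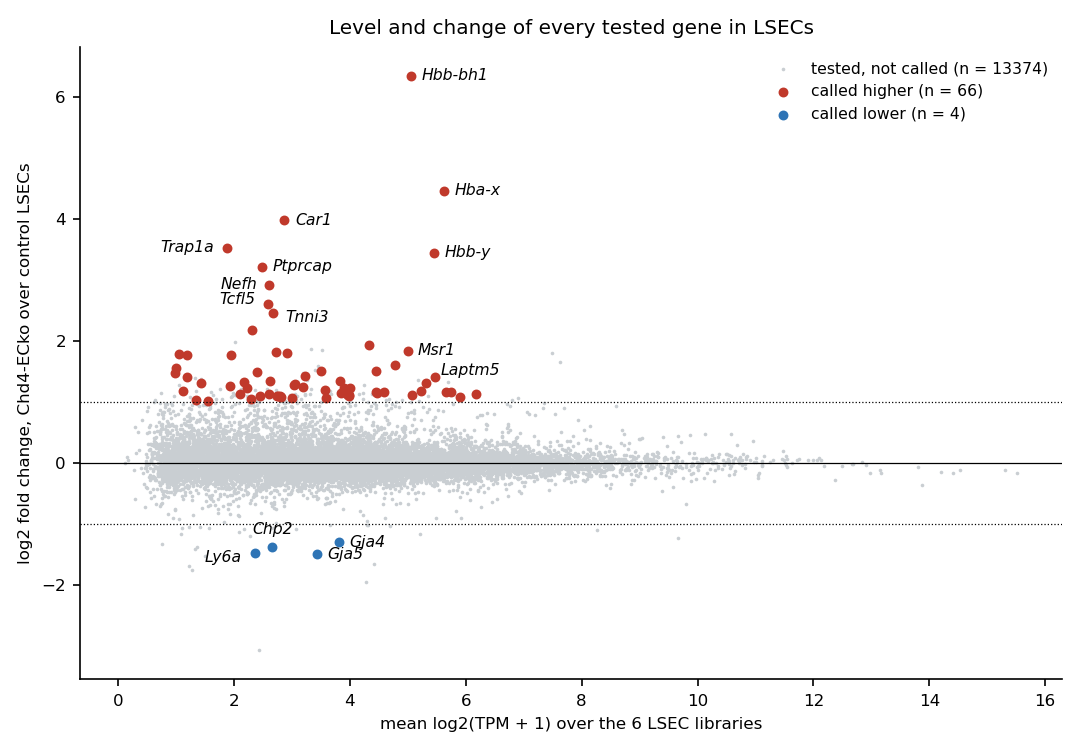
Each point is 1 of the 13444 genes tested, placed by its mean log2(TPM + 1) over the 6 LSEC libraries (x axis) and its log2 fold change, *Chd4-ECko* over control (y axis), with red for the 66 genes called higher, blue for the 4 called lower and dotted lines at a log2 fold change of 1 in either direction. The called genes lie mostly above the line and toward the left, where levels are low.

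The number of calls depended on the libraries. Without *Chd4-ECko* replicate 1 there were 148 DEGs, without replicate 2 there were 32 and without replicate 3 there were 29. Without control replicate 1, 2 or 3 there were 40, 36 and 49. Of the 66 higher DEGs, 49 (74.2%) were lowest in *Chd4-ECko* replicate 1, against 43.1% of all tested genes, and only 4 were highest there. Even so, 27 of the 66 higher DEGs and 1 of the 4 lower DEGs (*Gja4*) kept an adjusted p under 0.05 under every alternative in which they were tested. All 70 kept their sign wherever tested. With the filter of a mean of 5 TPM only 52 of the 70 were tested, and *Trap1a*, *Cpne7*, *Cyp4b1* and *Adam23* were not. *F13a1*, *Mmp9*, *Snhg11*, *Spi1*, *Fcer1g*, *Fcgr3*, *Chp2* and *Gja5*, described below, lost their calls with quantile normalization (46 DEGs) and with no filter on low values (45 DEGs), and *Ly6a* with the latter. *Snhg11*, *Fcer1g*, *Fcgr3* and *Ly6a* also lost theirs with TPM rescaled without mitochondrial and globin genes, and *Fcgr3* with no trend of the variance on the mean level. Among the 27 are *Nefh*, *Tcfl5*, *Trap1a*, *Tnni3*, *Thy1*, *Sncg*, *Cpne7*, *Cyp4b1*, *Adam23* and *Emilin2*, the embryonic globins, *Car1*, and the leukocyte genes *Ptprcap*, *Laptm5*, *Vav1*, *Was*, *Itgal*, *Ptpn6*, *Msr1* and *Samsn1*.

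A first group of raised genes belongs to lineages outside the liver vasculature. *Nefh*, on chromosome 11, encodes the heavy neurofilament subunit of axons. *Tcfl5*, on chromosome 2, encodes a helix-loop-helix factor of spermatogenesis, and *Trap1a*, on the X chromosome, encodes an antigen of tumors and placenta that is silent in most adult tissue. The 250 bases upstream of each start site are shown because these are the raised genes of foreign lineages with the largest fold changes and because CG dinucleotides, the sites of DNA methylation that the NuRD subunit MBD2 reads, are fewer before most raised genes than before these. Sequences are from GRCm39 with start sites of GENCODE vM39, 5′ to 3′ on the strand of the gene, with each CG in capitals. *Nefh* (chr11:4898131-4898380, minus strand) holds 12, *Tcfl5* (chr2:180284557-180284806, minus strand) 14 and *Trap1a* (chrX:138234182-138234431, plus strand) 7.
Nefh: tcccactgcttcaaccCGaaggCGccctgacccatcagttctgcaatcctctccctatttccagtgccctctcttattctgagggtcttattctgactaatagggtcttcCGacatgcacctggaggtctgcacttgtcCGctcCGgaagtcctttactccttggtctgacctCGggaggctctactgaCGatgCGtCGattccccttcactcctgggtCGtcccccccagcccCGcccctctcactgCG
Tcfl5: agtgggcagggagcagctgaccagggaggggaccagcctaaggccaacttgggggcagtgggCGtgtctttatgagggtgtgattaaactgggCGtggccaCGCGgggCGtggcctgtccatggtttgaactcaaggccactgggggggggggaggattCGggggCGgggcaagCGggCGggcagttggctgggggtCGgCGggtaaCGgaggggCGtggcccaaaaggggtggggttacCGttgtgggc
Trap1a: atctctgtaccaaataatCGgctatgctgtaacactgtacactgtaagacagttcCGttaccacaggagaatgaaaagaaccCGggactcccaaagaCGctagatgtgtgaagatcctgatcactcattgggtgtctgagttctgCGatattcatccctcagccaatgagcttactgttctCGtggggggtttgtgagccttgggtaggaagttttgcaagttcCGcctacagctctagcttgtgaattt

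*Nefh* measured 1.15, 1.41 and 1.13 TPM in controls and 13.8, 20.2 and 14 TPM in *Chd4-ECko* LSECs. Every mutant library lay far above every control, and the log2 fold change was 2.91 (SE 0.20, adjusted p = 8.99e-06). *Tcfl5* rose from 1.69, 1.7 and 1.02 TPM to 13.5, 17.8 and 11 TPM (log2 fold change 2.6, SE 0.20, adjusted p = 2.93e-05). The mutant libraries were again separate from the controls, as they were for all 66 higher DEGs and for 8.7% of all tested genes. *Trap1a* was close to 0 in controls, at 0.139, 0.111 and 0 TPM, and read 8.36, 19.5 and 9.02 TPM in mutants (log2 fold change 3.52, SE 0.29, adjusted p = 2.94e-05). The cardiac troponin I gene *Tnni3*, which encodes the inhibitory troponin subunit of heart muscle, was at 1.72, 1.76 and 1.7 TPM in controls and 7.98, 30.3 and 10.7 TPM in mutants (log2 fold change 2.45, SE 0.36, adjusted p = 0.00471). Replicate 2 was the highest mutant library for all of these genes.

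Some raised genes were almost constant between mutant libraries. *Thy1*, a GPI-anchored surface protein of neurons, T cells and some mesenchyme, measured 2.82, 3.41 and 2.96 TPM in controls and 13.1, 13.6 and 12.4 TPM in mutants (log2 fold change 1.79, SE 0.21, adjusted p = 0.00102). *Sncg*, which encodes gamma-synuclein, a small neuronal protein also found in other cells, went from 16.9, 12 and 13.3 TPM to 33.3, 31.4 and 31.4 TPM (log2 fold change 1.15, SE 0.18, adjusted p = 0.00573). For both, the mutant libraries lay close together and well above the controls. *Adam23*, an integrin-binding membrane protein of the nervous system, rose from 2.15 ± 0.129 to 7.83 ± 0.898 TPM (mean ± SD, n = 3 each), and *Cyp4b1*, a cytochrome P450 monooxygenase gene, from 1.11 ± 0.202 to 6.2 ± 1.34 TPM. *Emilin2*, an extracellular matrix glycoprotein gene, rose from 4.78 ± 1.04 to 14.3 ± 1.39 TPM.

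Several others rose from near 0. *Cpne7*, which encodes a calcium-dependent phospholipid-binding copine, was at 0.0682, 0.109 and 0.177 TPM in controls and 2.63, 4.01 and 2.1 TPM in mutants (log2 fold change 1.78, adjusted p = 0.0045). *Prl3b1*, placental lactogen II of trophoblast, was at 0.46, 0 and 0.266 TPM and 3.48, 3.95 and 2.3 TPM (log2 fold change 1.77). *Prl3b1* passed the filter of 1 TPM in 3 of the 12 LSEC libraries only through the 3 *Chd4-ECko* libraries, so it had to differ and its test supports nothing, and the call was lost with a pseudocount of 0.1 TPM (adjusted p = 0.0911). *Foxh1*, a forkhead partner of SMAD proteins in early embryos, was at 0.12, 0.287 and 0.104 TPM and 1.89, 2.64 and 2.8 TPM (log2 fold change 1.55, adjusted p = 0.0193). *Foxh1* lost its call without *Chd4-ECko* replicate 2 or 3 or without any 1 of the 3 controls (adjusted p up to 0.143). *Snhg11*, a noncoding host gene of small nucleolar RNAs and the 1 DEG that is not protein coding, was at 0.642, 0.156 and 0.434 TPM and 4.68, 2.31 and 1.72 TPM (log2 fold change 1.41, adjusted p = 0.0381). *Snhg11* lost its call when any 1 of the 6 libraries was left out (adjusted p 0.0586 to 0.181). The mutant libraries of these genes did not overlap the controls, but all lie where 1 TPM is a large share of the level, and their log2 fold changes on the log2(TPM + 1) scale understate the ratio of levels.

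**Figure D2:**
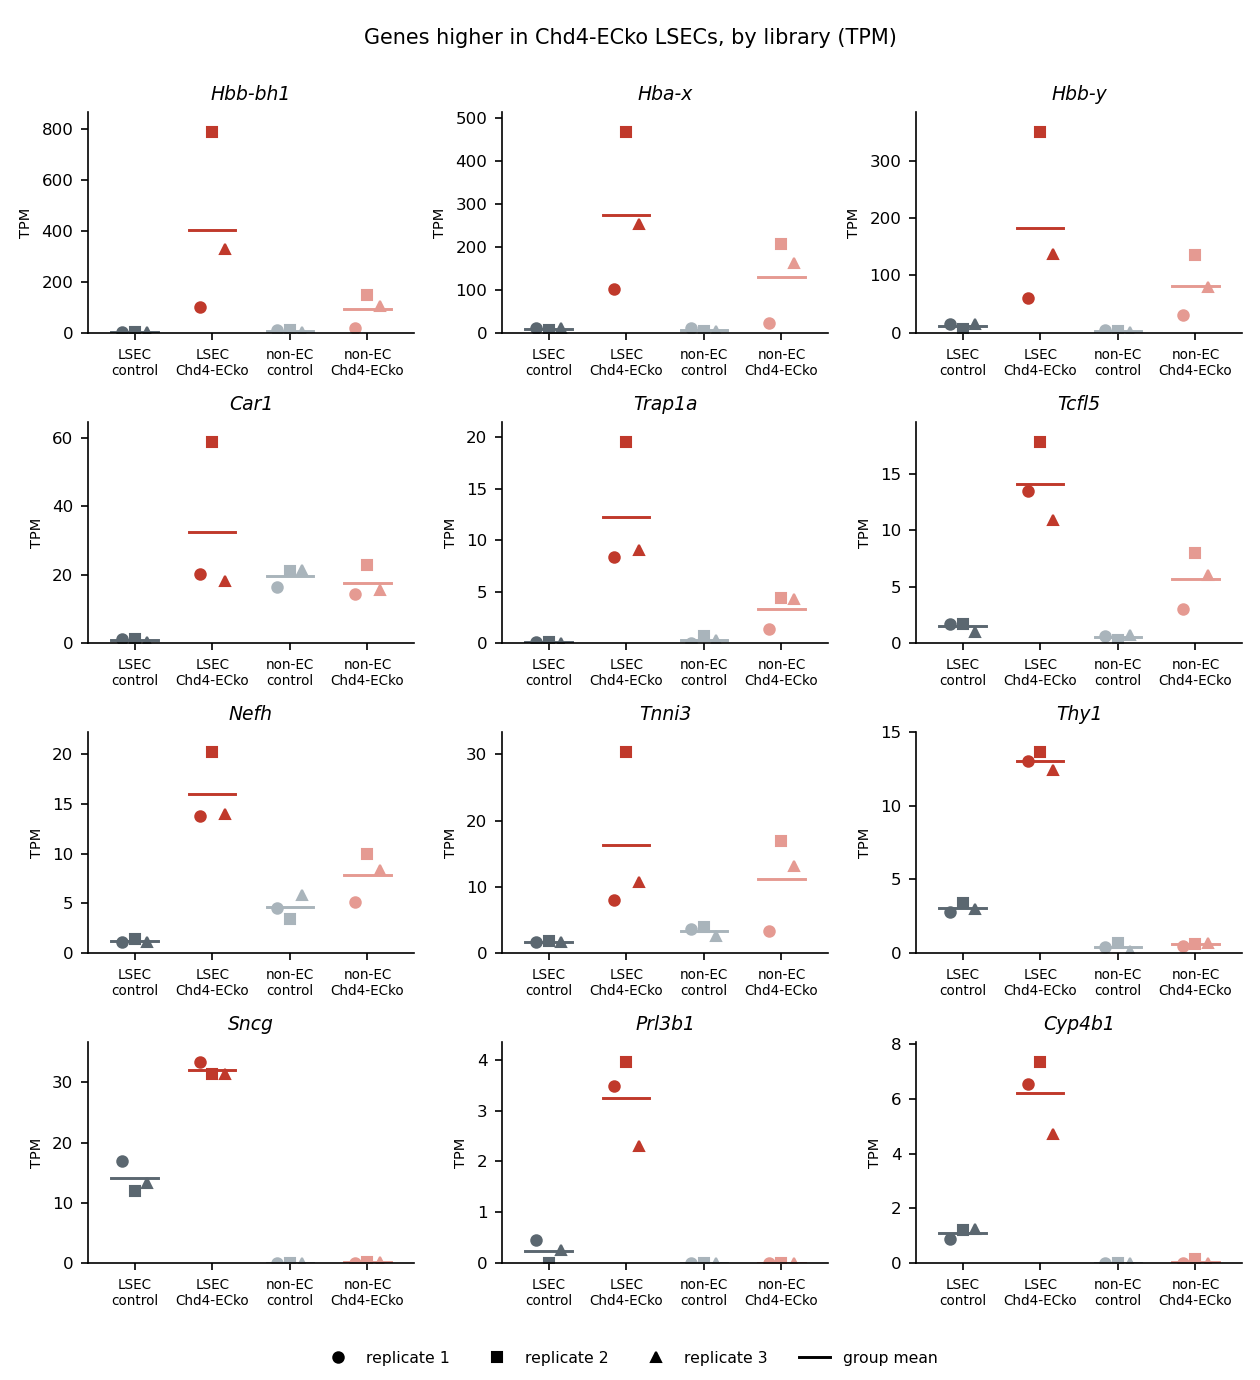
TPM of 12 genes raised in *Chd4-ECko* LSECs (y axes, each from 0) in the 3 libraries of each of 4 groups (x axes: control and *Chd4-ECko*, LSEC in dark and non-EC in pale shades), with a symbol for each replicate number and a line at the group mean. In LSECs no mutant library overlaps a control for any of the 12, which were chosen by this contrast and share this with all 66 higher DEGs. *Sncg*, *Cyp4b1* and *Prl3b1* stay near 0 in all 6 non-EC libraries.

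Few other listed members of these lineages passed the test. Of 17 tested neuronal genes (of 23 listed), *Nefh*, *Thy1* and *Sncg* were DEGs, the median log2 fold change was -0.18 (-0.22 to -0.07 with 1 library left out) and 6 were positive. The axonal growth protein gene *Gap43*, the most abundant of them, measured 276, 241 and 241 TPM and 221, 214 and 220.2 TPM (log2 fold change -0.21, adjusted p = 1.0). Of 7 tested germline genes (of 23), *Tcfl5* and *Trap1a* were DEGs and the median was 1.00 (0.62 without control 3). The gene lists were chosen with earlier results of these data known, so these calls and medians are partly built in. *Rhox5*, a germline homeobox gene on the X chromosome, measured 49.8, 69.9 and 42.2 TPM and 35.8, 44.3 and 53.6 TPM (log2 fold change -0.26, adjusted p = 1.0), with overlapping groups. Of 17 tested striated muscle genes (of 24), *Tnni3* alone was a DEG. Their median was 0.24, but -0.14 without control 2 and -0.16 without *Chd4-ECko* replicate 3. Of 4 tested placental and pancreatic genes (of 12) *Prl3b1* alone was a DEG, and the median of the list was 0.86. *Prl3b1* passed the filter only through the *Chd4-ECko* libraries, so its call supports nothing, and the median includes it. Most listed genes of the germline and of placenta and pancreas never reached the 1 TPM minimum. All tested genes had a median of 0.01, and 0.521% of them were DEGs.

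The 3 globins of primitive red cells were among the genes that rose most. *Hbb-bh1*, an embryonic beta-like globin, read 2.67, 3.84 and 1.85 TPM in controls and 102, 789 and 328 TPM in *Chd4-ECko* LSECs (log2 fold change 6.34, SE 0.52, adjusted p = 2.94e-05). *Hba-x*, the embryonic zeta globin, read 11.9, 6.14 and 11.8 TPM and 103, 467 and 254 TPM (log2 fold change 4.46, SE 0.42, adjusted p = 0.000148). *Hbb-y*, the embryonic epsilon-y globin, read 15, 7.64 and 15.9 TPM and 61.2, 349 and 137 TPM (log2 fold change 3.44, SE 0.44, adjusted p = 0.00213). All 3 kept the same order of mutant libraries, with replicate 2 highest, replicate 3 next and replicate 1 lowest, and all 3 remained DEGs when any 1 of the 6 libraries was left out. How reads matching several globins were counted is not given in the sources used here, so the split among near-identical copies is uncertain.

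The adult globins overlapped between the groups. *Hbb-bs*, an adult beta globin gene, read 230.0, 605 and 209 TPM in controls and 168, 213 and 522 TPM in mutants (log2 fold change -0.21, adjusted p = 1.0), with overlapping groups. None of the 4 adult globins passed the test (limma, 0 at adjusted p under 0.05), and their median of 0.35 became -0.17 without control 3, -0.03 without *Chd4-ECko* replicate 3 and 0.91 without control 2. Their sum was 678, 1754 and 471 TPM in controls and 548, 929.5 and 1672 TPM in mutants. Of 31 tested erythroid genes 1 was a DEG, *Car1* (0.491% of all tested genes were higher DEGs), and 30 were positive (51.6% of all). In 6 the mutant libraries lay above all controls (8.7% of all). The median of the list was 0.64, 0.36 without control 3 and 0.89 without control 2. *Car1*, the carbonic anhydrase of erythroid and gut cells, rose from 1.18, 1.15 and 0.34 TPM to 20.2, 58.8 and 18.1 TPM (log2 fold change 3.97, SE 0.44, adjusted p = 0.000629). Its relative *Car2*, also abundant in red cell precursors, read 114, 181 and 76.7 TPM and 158, 252 and 259 TPM (log2 fold change 0.89, adjusted p = 0.595). The erythroid list summed to 586, 892 and 452 TPM in controls and 844, 946 and 1240.5 TPM in mutants, which overlap, and the part of red cell precursors in the globin values was not tested beyond these sums.

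The 120 bases before the annotated start of 3 beta-like globin genes of 1 cluster on chromosome 7 are shown, those of the embryonic genes that rose and that of an adult gene that was not called. Capitals mark, on either strand, the CACCC box, the CCAAT box and the TATA-like element ATAAAA known from globin promoters. *Hbb-bh1* (chr7:103492372-103492491) and *Hbb-y* (chr7:103502424-103502543) hold all 3, and *Hbb-bs* (chr7:103477170-103477289) holds CACCC and CCAAT. The window of *Hbb-bs* ends nearer to its CCAAT than ATAAAA lies from CCAAT in the embryonic genes, so it does not cover that place and its lack of ATAAAA is not read as a difference between the promoters. All are on the minus strand of GRCm39. In windows of the same length CACCC occurs before 35.5%, CCAAT before 25.3% and ATAAAA before 4.17% of the 13442 tested genes with a matched start, and all 3 occur together before 45 (0.335%).
Hbb-bh1: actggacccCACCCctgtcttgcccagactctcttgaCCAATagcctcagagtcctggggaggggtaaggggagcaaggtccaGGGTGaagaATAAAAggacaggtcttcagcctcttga
Hbb-y: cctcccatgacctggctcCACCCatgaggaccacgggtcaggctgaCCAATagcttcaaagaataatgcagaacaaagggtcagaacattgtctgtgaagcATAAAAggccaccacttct
Hbb-bs: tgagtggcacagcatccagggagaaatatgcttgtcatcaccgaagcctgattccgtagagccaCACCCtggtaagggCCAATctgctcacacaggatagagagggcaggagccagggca

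The pan-leukocyte list held more DEGs than any other. Of 22 tested pan-leukocyte genes, 7 were DEGs (*Ptprcap*, *Itgal*, *Laptm5*, *Rac2*, *Was*, *Vav1* and *Dock2*), all 22 were positive (51.6% of all tested genes were) and the median log2 fold change was 0.95. In 17 of the 22 the mutant libraries lay above all controls without overlap, as they did for 8.7% of all tested genes. *Ptprcap*, which encodes the protein that associates with the phosphatase CD45, rose from 1.02, 0.568 and 0.966 TPM to 15.2, 25.2 and 10.5 TPM (log2 fold change 3.21, SE 0.48, adjusted p = 0.00551). *Itgal*, the alpha chain of the leukocyte integrin LFA-1 that binds ICAM1, read 12.1, 10.2 and 13.7 TPM and 27.9, 36.7 and 44.4 TPM (log2 fold change 1.51, SE 0.20, adjusted p = 0.00273). *Laptm5*, a lysosomal membrane protein gene of blood cells, read 26.2, 20.4 and 27 TPM and 53.8, 68.7 and 62.9 TPM (log2 fold change 1.3, SE 0.16, adjusted p = 0.00174). *Itgal* was higher in replicate 3 than in replicate 1, while *Ptprcap* and *Laptm5* peaked in replicate 2. The small GTPase gene *Rac2*, its activators *Vav1* and *Dock2*, and the actin regulator *Was* had log2 fold changes of 1.22, 1.16, 1.1 and 1.16. *Rac2* lost its call without *Chd4-ECko* replicate 2 or 3 or control 2 (adjusted p up to 0.0748), and *Dock2* without these or control 1 (up to 0.123).

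All 23 tested macrophage genes were positive, against 51.6% of all tested genes, with a median of 0.87. Of the 23, 4 were higher DEGs, against 0.491% of all, and in 15 the mutant libraries lay above all controls, against 8.7%. *Cx3cr1*, the fractalkine receptor of macrophages and their precursors, read 15.5, 11.9 and 17.4 TPM in controls and 30.9, 53.5 and 61.3 TPM in mutants (log2 fold change 1.59, adjusted p = 0.0056). It lost its call without *Chd4-ECko* replicate 3 (adjusted p = 0.0586). *Fcgr3*, a low-affinity IgG receptor gene, read 24.8, 20.6 and 35.4 TPM and 46.6, 76.2 and 101 TPM (log2 fold change 1.4, adjusted p = 0.0397). The Fc receptor gamma chain gene *Fcer1g* (1.12) and the myeloid transcription factor gene *Spi1* (1.1) were the remaining DEGs by log2 fold change. *Fcgr3*, *Fcer1g* and *Spi1* lost their calls without *Chd4-ECko* replicate 2 or 3 or control 1 or 2 (adjusted p up to 0.299, 0.246 and 0.242). Some abundant receptors of liver macrophages overlapped between the groups. *Mrc1*, the mannose receptor, read 225, 193 and 194 TPM and 216, 201 and 239.9 TPM, and *Marco*, a scavenger receptor, 227, 87.7 and 261 TPM and 157, 243 and 176 TPM.

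The leukocyte and macrophage counts rested on which mutant embryos were included. With *Chd4-ECko* replicate 1 left out, 13 pan-leukocyte and 12 macrophage genes were DEGs. With replicate 2 left out 5 and 1 were, with replicate 3 left out 5 and 0, with control 1 left out 6 and 1, with control 2 left out 5 and 1 and with control 3 left out 7 and 4. Among the mutants, replicate 1 also had the lowest sum of either list. The pan-leukocyte list summed to 454, 419.6 and 511 TPM in controls and 631, 970.2 and 961 TPM in mutants, and the macrophage list to 1448, 1336 and 1699 TPM and 1662, 2608 and 2529 TPM, where replicate 1 lay within the control range. Whether these genes rose in endothelial cells or in leukocytes carried in the fraction was not tested.

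**Figure D3:**
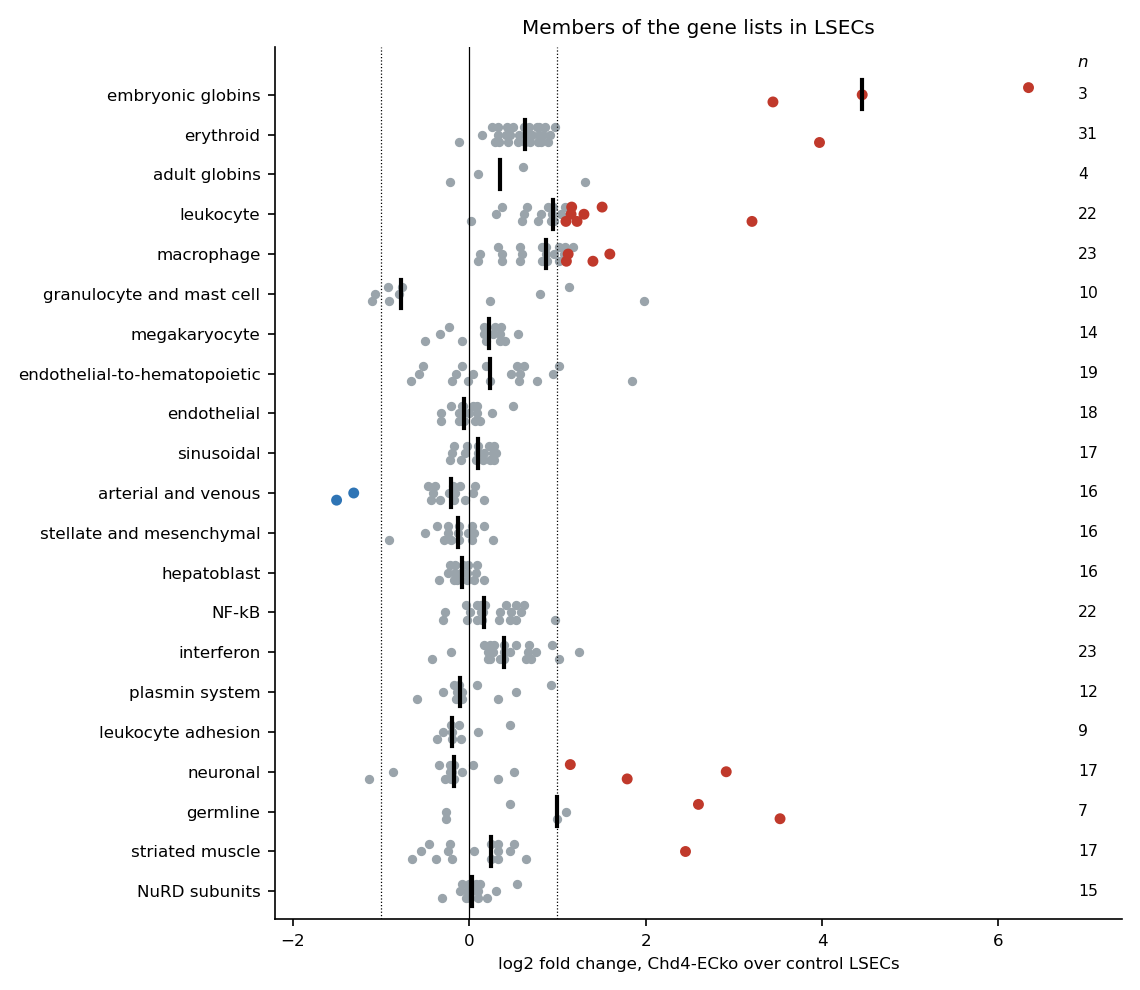
Log2 fold changes, *Chd4-ECko* over control LSECs (x axis), of the tested members of 21 gene lists (rows), with red points for DEGs called higher, blue for DEGs called lower, gray for the rest, a black bar at each list's median and the number tested at the right. The embryonic globins stand at 3.44 to 6.34, the leukocyte and macrophage lists lie wholly above 0, and the 2 blue points are *Gja5* and *Gja4*.

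Some DEGs outside those lists are known from blood cells, a grouping made after their values were seen. *Msr1*, the macrophage scavenger receptor, read 16.6, 12.2 and 19.97 TPM in controls and 37.5, 70.6 and 78.1 TPM in mutants (log2 fold change 1.83, SE 0.26, adjusted p = 0.00345). *F13a1*, the A subunit of coagulation factor XIII in macrophages and megakaryocytes, read 9.93, 8.66 and 9.3 TPM and 17.4, 44.6 and 71.5 TPM (log2 fold change 1.94, adjusted p = 0.0343). *Mmp9*, the gelatinase of myeloid cells, read 2.43, 1.32 and 4.46 TPM and 6.0, 11.8 and 20.2 TPM (log2 fold change 1.81, adjusted p = 0.0296). All 3 were highest in replicate 3 and lowest in replicate 1. *F13a1* lost its call without *Chd4-ECko* replicate 2 or 3 or any 1 control, and *Mmp9* without *Chd4-ECko* replicate 2 or 3 or control 1 or 2 (adjusted p up to 0.178 and 0.17). *Samsn1*, an SH3 adaptor gene of lymphocytes, rose more evenly, from 5.11, 5.61 and 6.67 TPM to 15.9, 20.8 and 17.8 TPM (log2 fold change 1.5, adjusted p = 0.00272), as did the T cell adaptor gene *Sh2d2a*, from 0.187 ± 0.125 to 2.31 ± 0.419 TPM (mean ± SD, n = 3 each), which passed the filter through these 3 mutant libraries. *Csf2rb*, the common beta chain gene of the IL-3, IL-5 and GM-CSF receptors, was a DEG as well, but it has a near-identical neighbour, *Csf2rb2*, and the division of reads between them is uncertain. The tyrosine phosphatase gene *Ptpn6*, the actin regulator gene *Nckap1l* and the phospholipase gene *Plcg2* were further DEGs that were higher. *Ptpn6* kept its call under every alternative run, *Nckap1l* in 13 of 14 (adjusted p up to 0.0596) and *Plcg2* in 8 of 14 (up to 0.174).

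*Alox5*, which encodes 5-lipoxygenase, the first enzyme of leukotriene synthesis, read 1.51, 0.974 and 1.56 TPM in controls and 5.15, 15.4 and 10.4 TPM in mutants (log2 fold change 2.17, SE 0.34, adjusted p = 0.00754). It lost its call without *Chd4-ECko* replicate 2 or 3 (adjusted p up to 0.0735). It was the 1 DEG among 8 tested leukotriene and prostaglandin genes, whose median was 0.11 (0.05 to 0.28 with 1 library left out). *Alox5ap*, the membrane protein that presents arachidonate to 5-lipoxygenase, read 6.71, 4.61 and 6.11 TPM and 7.79, 18.5 and 17.5 TPM (log2 fold change 1.12, adjusted p = 0.0811). It passed the limma test at 0.0475 with replicate numbers as a block and at 0.00339 without *Chd4-ECko* replicate 1. The list then held 2 DEGs without replicate 1 and 0 without replicate 2 or 3. *Lta4h*, the leukotriene A4 hydrolase gene, read 162, 171 and 157 TPM and 131, 152 and 161 TPM (log2 fold change -0.14).

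Granulocyte and mast cell genes were not called. None of 10 passed the test (limma, 0 at adjusted p under 0.05), and 4 were positive. Their median was -0.78, but -0.12 without *Chd4-ECko* replicate 1 and -1.30 without its replicate 2. *S100a9*, a calgranulin gene of neutrophils, read 391, 291 and 799 TPM in controls and 77.9, 441 and 268 TPM in mutants (log2 fold change -1.1, adjusted p = 0.895). In 3 of the 10 the mutant libraries lay above all controls (8.7% of all tested genes), and in none below. These were the myeloperoxidase gene *Mpo* (1.87, 0.874 and 0.585 TPM and 12, 4.83 and 5.85 TPM, log2 fold change 1.98, adjusted p = 0.398), the proteinase 3 gene *Prtn3* (0.776, 0 and 1.07 TPM and 1.23, 1.85 and 2.07 TPM) and the mast cell carboxypeptidase gene *Cpa3* (0.113, 0.0903 and 0.195 TPM and 0.891, 2.39 and 1.41 TPM). The sum of the list ran from 138 TPM in *Chd4-ECko* replicate 1 to 1165 TPM in control 3, with overlapping groups. Of 14 megakaryocyte genes and 3 lymphoid genes none passed, at medians of 0.23 (0.04 to 0.53 with 1 library left out) and 0.07 (-0.12 to 0.13).

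The 4 genes called lower included both arterial connexins. *Gja4*, which encodes connexin 37, a gap junction protein of arterial endothelium, read 18.5, 25 and 20.2 TPM in controls and 6.9, 7.77 and 9.22 TPM in mutants (log2 fold change -1.31, SE 0.20, adjusted p = 0.0056). *Gja5*, which encodes connexin 40, its arterial partner, read 11, 25.9 and 17.4 TPM and 3.62, 5.71 and 7.45 TPM (log2 fold change -1.5, SE 0.30, adjusted p = 0.0368). Every mutant library lay below every control for both, and the control spread was wide for *Gja5*, where control 2 was over 2 times control 1. *Ly6a*, the Sca-1 antigen gene of arterial endothelium and blood stem cells, read 6.38, 7.92 and 8.46 TPM and 2.55, 2.62 and 1.24 TPM (log2 fold change -1.48, SE 0.28, adjusted p = 0.0296). *Chp2*, which encodes a calcineurin-like calcium-binding protein, read 7.53, 11.8 and 8.75 TPM and 1.77, 3.72 and 3.65 TPM (log2 fold change -1.37, SE 0.27, adjusted p = 0.0351). *Gja4* kept its call with any 1 library left out (adjusted p 0.0162 to 0.0452). *Chp2* lost it with any 1 left out (up to 0.181), *Gja5* with any except control 1 (up to 0.181) and *Ly6a* with any except *Chd4-ECko* replicate 1 (up to 0.196).

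Of the 16 tested arterial and venous genes, *Gja4* and *Gja5* were the DEGs (0.0298% of all tested genes were lower DEGs), 3 were positive (51.6% of all) and the median log2 fold change was -0.21. In 5 of them (*Gja4*, *Gja5*, *Efnb2*, *Jag1* and *Sox17*) the mutant libraries lay below all controls, as they did for 3.65% of all tested genes. *Efnb2*, the arterial ephrin ligand gene, read 66.9, 61.7 and 53 TPM and 46.4, 36.4 and 48.5 TPM (log2 fold change -0.46, adjusted p = 0.571). The Notch ligand gene *Jag1* and the arterial transcription factor gene *Sox17* had log2 fold changes of -0.39 and -0.43 (adjusted p = 0.855 and 0.801). Venous genes were not higher. *Ephb4*, the venous receptor of EFNB2, read 116, 128 and 103 TPM and 102, 88.7 and 104 TPM, and *Nr2f2*, the venous COUP-TFII factor gene, 179, 169 and 161 TPM and 163, 127 and 165 TPM (log2 fold changes -0.23 and -0.17). The 18 pan-endothelial genes had a median of -0.06 (-0.17 to 0.05 with 1 library left out) with none called, and the 17 sinusoidal genes a median of 0.10 (0.02 to 0.22) with none called. The summed pan-endothelial level (2058, 2205 and 1707 TPM in controls, 1789, 1801 and 2080.3 TPM in mutants) overlapped between the groups.

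Among 19 tested genes of the endothelial-to-hematopoietic transition, by which blood stem cells bud from arterial endothelium, none passed the test (limma, 0 at adjusted p under 0.05) and the median was 0.24 (0.16 to 0.44 with 1 library left out). In 9 of the 19 the mutant libraries lay above all controls (8.7% of all tested genes) and in 2, *Cd34* and *Mecom*, below (3.65%). *Myb*, a transcription factor gene of definitive blood progenitors, had the highest value (6.33, 4.78 and 4.17 TPM in controls, 30.1, 15.4 and 19.08 TPM in mutants, log2 fold change 1.85, adjusted p = 0.177). *Mecom*, a factor of stem cells and arterial endothelium, had the lowest (14.4, 17.4 and 12.5 TPM, 10.04, 7.94 and 8.77 TPM, log2 fold change -0.66, adjusted p = 0.162). *Runx1*, the factor that this transition requires, read 7.72, 2.77 and 4.51 TPM and 7.6, 3.91 and 5.99 TPM (log2 fold change 0.24, adjusted p = 1.0).

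Genes of plasmin formation and of leukocyte adhesion were examined because the study followed both in *Chd4-ECko* livers. *Plaur*, the urokinase receptor that gathers plasminogen activation at the cell surface, read 5.65, 7.67 and 8.08 TPM in controls and 13.7, 13.9 and 15.4 TPM in mutants. Every mutant library lay above every control, with a log2 fold change of 0.92 (SE 0.17, adjusted p = 0.0211), just short of the fold threshold, and the call at an adjusted p under 0.05 was lost without *Chd4-ECko* replicate 2 or 3 or control 1 or 2 (up to 0.144). It was the 1 gene of 12 in the plasmin system that passed an adjusted p of 0.05, and the list's median was -0.10 (-0.12 to 0.03 with 1 library left out). *Icam1*, the endothelial ligand of the integrin encoded in part by *Itgal*, read 38.9, 42.5 and 35.4 TPM and 50.8, 55.6 and 56 TPM without overlap, but did not pass the test (log2 fold change 0.47, SE 0.13, adjusted p = 0.151). *Vcam1*, the ligand of the integrin VLA-4, read 66.2, 57.4 and 68.7 TPM and 43.7, 57.5 and 55.5 TPM (log2 fold change -0.30, adjusted p = 0.895). The 9 adhesion genes had a median of -0.19 (-0.21 to -0.10 with 1 library left out) and none was called.

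No single gene of the inflammatory target lists passed. None of 22 NF-kB genes passed the test in limma (0 at adjusted p under 0.05), 18 were positive (51.6% of all tested genes were), 8 lay above all controls without overlap (8.7% of all) and the median was 0.17 (0.18 to 0.28 with 1 library left out). None of 23 interferon genes passed either, with 21 positive, 13 above all controls without overlap and a median of 0.39. The leukocyte sums given above were higher in the same libraries, and the part of leukocytes in these lists was not tested. The 13 immediate early genes, which respond to tissue handling, had a median of 0.15 (-0.01 to 0.22 with 1 library left out), and the 15 cell cycle genes one of 0.04 (-0.04 to 0.09), with none called in either. With no fold threshold 91 genes were called higher (0.677%) and 4 lower, so a further 25 genes passed an adjusted p of 0.05 with a log2 fold change under 1, all of them higher, from *Slc15a3* (0.998), a peptide and histidine transporter gene of endolysosomes, and the transcription factor gene *Cebpb* (0.96) down to *Slc16a3* (0.71), a lactate exporter gene, and *Gadd45g* (0.69), a stress-induced gene. At the other side of the threshold, the smallest DEGs were *Phldb3*, *Ly6h* and *Fgd2*, at log2 fold changes of 1.01, 1.03 and 1.04.

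Non-EC liver cells of the same genotypes were compared to ask which changes were shared with the cells left after CD146 selection. In them 12223 genes were tested and 108 were DEGs (0.884%), 53 higher (0.434%) and 55 lower (0.45%). Of the 66 genes raised in LSECs 57 were tested in non-EC cells, and 5 of the 57 were higher DEGs there as well, namely *Hbb-bh1*, *Hbb-y*, *Hba-x*, *Tcfl5* and *Trap1a*. The median log2 fold change of the 57 in non-EC cells was 0.08, and 32 were positive, against 50.7% of all genes. The difference between the LSEC and the non-EC effect was tested in 1 model over 24 libraries. It had an adjusted p under 0.05 for 35 of the 66 higher DEGs and 2 of the 4 lower ones, and for 140 of 13775 genes overall (1.02%). The DEGs were chosen by their LSEC change, which is part of this difference, so their share is partly built in. The model took the 24 libraries as independent, and the labels do not say which LSEC and non-EC libraries came from the same embryo. Of the 35, 26 were among the 57 tested in non-EC cells. The other 9, and both lower genes, were below the filter in non-EC cells and entered the model through their LSEC levels, so for them the difference mostly restates the LSEC change. These counts rested on single libraries. The 108 non-EC DEGs became 1015 without non-EC *Chd4-ECko* replicate 1, 31 without its replicate 3, and 66 and 71 without non-EC control 1 or 3. The 35 became 12 without LSEC control 2, 22 without LSEC *Chd4-ECko* replicate 2, 23 without non-EC *Chd4-ECko* replicate 3, and 21 and 19 without non-EC control 1 or 3.

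*Tcfl5* in non-EC cells rose from 0.617, 0.30 and 0.72 TPM to 3.01, 7.96 and 6.01 TPM (log2 fold change 2.04, adjusted p = 0.00425), and the difference between fractions did not pass the test (adjusted p = 0.356). *Hbb-bh1* went from 12, 10.4 and 3.4 TPM to 21.4, 149 and 107 TPM there (log2 fold change 3.04, adjusted p = 0.0245), with replicate 2 again highest and replicate 1 lowest. The zeta globin gene *Hba-x* and the epsilon-y globin gene *Hbb-y* had non-EC log2 fold changes of 3.63 and 4.01. *Nefh*, in contrast, measured 4.55, 3.47 and 5.82 TPM and 5.11, 10.03 and 8.38 TPM in non-EC cells, and its LSEC effect was larger by 2.28 on the log2 scale (SE 0.29, adjusted p = 0.000888). The same test gave a larger LSEC effect for *Car1* (4.13, adjusted p = 0.000888), which was already at 16.3, 21.1 and 21.3 TPM in non-EC controls, and for *Ptprcap* (3.35, adjusted p = 0.0125), at 48.2, 43.2 and 43.5 TPM in non-EC controls. The mutant LSEC libraries reached or passed the non-EC range for *Car1* and stayed below it for *Ptprcap*. *Samsn1* moved in opposite directions. It fell in non-EC cells from 51.3, 41.6 and 56 TPM to 37.9, 28.8 and 17.6 TPM (log2 fold change -0.85, adjusted p = 0.0455).

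Where the raised transcripts were found differed between genes. In mutants 29 of the 66 higher DEGs were above all non-EC mutant libraries in every LSEC library (32.8% of all tested genes were), and 13 were below (30.9%). These genes were chosen for high levels in the same mutant LSEC libraries, so that count is partly built in. In controls 15 of the 66 (22.7%) were above all non-EC control libraries, against 35.7% of all tested genes. Below them were 30 (45.5%), against 39.8%. *Sncg* read 0, 0.20 and 0.185 TPM, *Cyp4b1* 0, 0.166 and 0 TPM and *Prl3b1* 0, 0 and 0 TPM in mutant non-EC cells, so these transcripts were nearly limited to the CD146+ fraction. *Thy1* was low there too, at 0.399, 0.683 and 0.149 TPM in controls and 0.508, 0.634 and 0.658 TPM in mutants. The lower genes *Gja5* (0.0597, 0.163 and 0.195 TPM in controls) and *Ly6a* (0.142, 0.111 and 0.532 TPM) were low in non-EC cells. *Gja4* (adjusted p = 0.114) and *Chp2* (adjusted p = 0.182) did not pass the test of the difference between fractions.

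**Figure D4:**
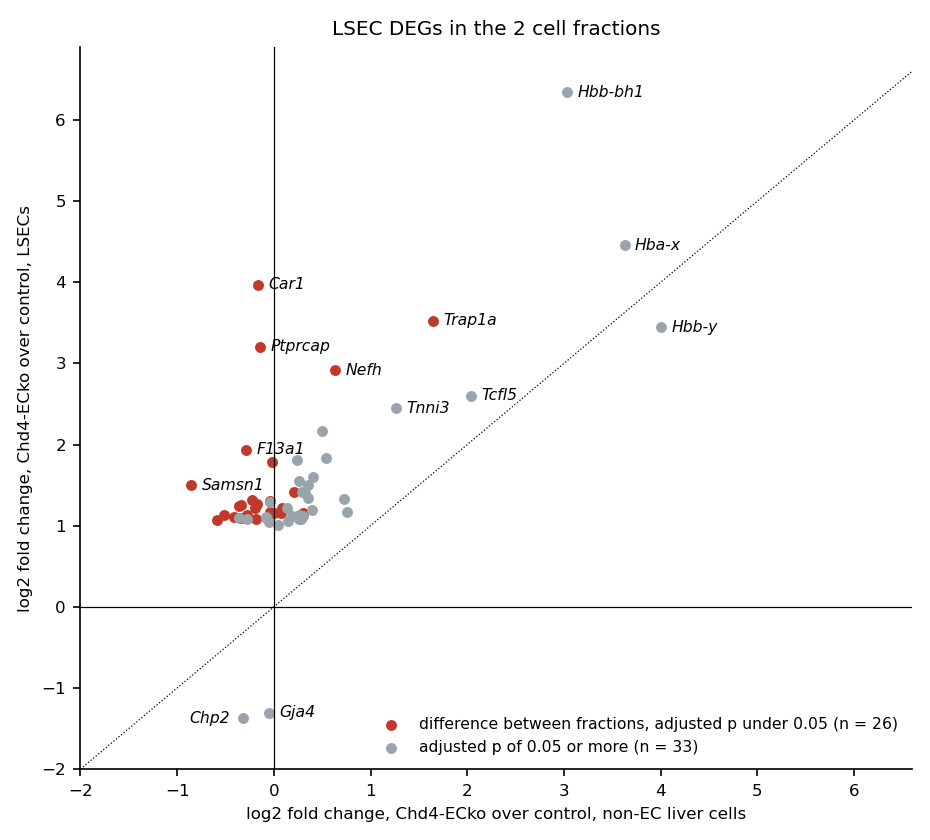
Log2 fold changes of the 59 LSEC DEGs tested in both fractions, *Chd4-ECko* over control in non-EC liver cells (x axis) and in LSECs (y axis), with a dotted line where both are equal, red for the 26 genes whose effect differs between fractions at an adjusted p under 0.05 and gray for the other 33. Most raised genes stand near 0 in non-EC cells, while the embryonic globins, *Tcfl5* and *Trap1a* are raised in both.

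LSECs of *Brg1-ECko* (Brg1 fl/fl;Chd4 fl/+) and *Brg1/Chd4-ECdko* (both genes fl/fl) embryos, all with *VE-cadherin-Cre*, were measured against the same 3 controls, so the values below share those controls and are set side by side without a test between them. *Tcfl5* read 11.5, 15 and 15.4 TPM in double mutants and 1.08, 1.31 and 1.45 TPM in *Brg1-ECko*, so it was at the *Chd4-ECko* level in the former and at the control level in the latter. *Nefh* read 7.75, 9.95 and 6.66 TPM in double mutants, below every *Chd4-ECko* library and above every control, and *Hbb-bh1* 129.6, 135 and 146 TPM. *Snhg11* was higher in double mutants, at 4.69, 6.17 and 9.58 TPM, than in any control.

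The higher DEGs had a median log2 fold change of 1.26 in *Chd4-ECko*, 1.01 in double mutant and 0.58 in *Brg1-ECko* LSECs. All tested genes had medians of 0.01, 0.16 and 0.08. These DEGs were chosen by their *Chd4-ECko* change against the same controls, so their medians are partly built in. In the same order the pan-leukocyte list had medians of 0.95, 0.83 and 0.44 and the macrophage list 0.87, 0.56 and 0.40. The erythroid list had 0.64, 0.12 and 0.24. A few genes raised in *Chd4-ECko* LSECs stood at the control level in double mutants. *Thy1* read 2.74, 2.9 and 3.03 TPM, inside or next to the control range of 2.82, 3.41 and 2.96 TPM. *Sncg* read 9.23, 11.1 and 14.1 TPM in double mutants, against 16.9, 12 and 13.3 TPM in controls and 6.45, 8.39 and 8.35 TPM in *Brg1-ECko*. *Prl3b1* read 0, 0.502 and 0 TPM in double mutants, but it passed the filter only through the *Chd4-ECko* libraries, so these values support nothing. *Cyp4b1* read 1.76, 1.57 and 2.69 TPM, below all *Chd4-ECko* libraries and above all controls. *Plaur* read 8.23, 11.5 and 9.06 TPM in double mutants and 6.27, 5.62 and 6.38 TPM in *Brg1-ECko*, and *Icam1* 35.5, 37.3 and 46.2 TPM and 33, 32 and 32.3 TPM. The lower genes were below controls in double mutants too. *Gja4* was at 11.3, 13.1 and 16.8 TPM in double mutants and 10.9, 16.7 and 16.9 TPM in *Brg1-ECko* LSECs, above every *Chd4-ECko* library and below every control in both. *Gja5* (3.65, 3.29 and 5.06 TPM), *Ly6a* (1.9, 1.04 and 3.33 TPM) and *Chp2* (2.25, 1.71 and 2.07 TPM) in double mutants also lay below every control. The tested arterial and venous genes had a median log2 fold change of -0.21 in *Chd4-ECko*, -0.08 in double mutant and -0.28 in *Brg1-ECko* LSECs.

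**Figure D5:**
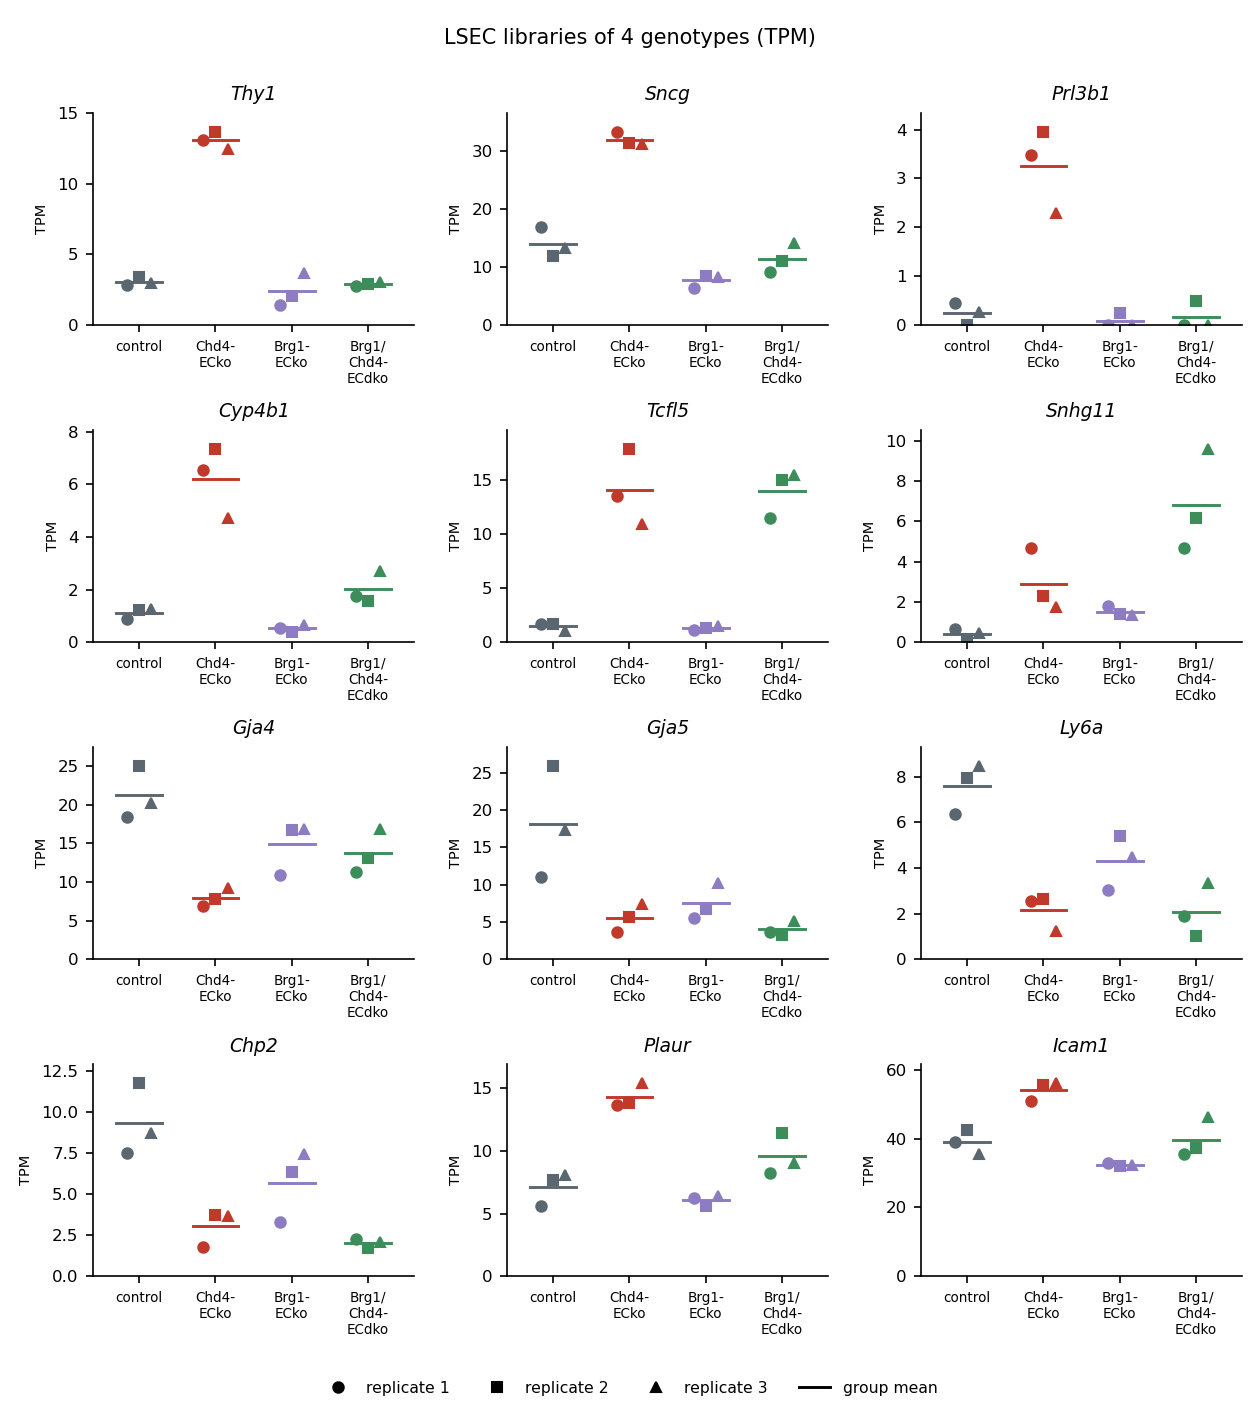
TPM of 12 genes (y axes, each from 0) in the 3 LSEC libraries of each of 4 genotypes (x axes), with a symbol for each replicate number and a line at the group mean. *Thy1* and *Sncg* are raised in *Chd4-ECko* LSECs and not in the *Brg1/Chd4-ECdko* libraries, *Tcfl5* is raised in both, and *Gja4*, *Gja5*, *Ly6a* and *Chp2* lie below the controls in both. *Prl3b1* passed the filter only through the *Chd4-ECko* libraries, so its low values elsewhere support nothing.

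The upstream sequences of the raised genes were poor in CG. In the 250 bases before the start, the 66 higher DEGs had a median of 4 CG dinucleotides and 53% GC, and the 13442 matched genes of all those tested had 12 and 56.4%. At most 3 CG occurred before 26 of 66 (39.4%), against 1681 of 13442 (12.5%). *Nefh* and *Tcfl5*, shown above with 12 and 14, were therefore at or above the general median. AGATAA or TGATAA, in the form bound by GATA factors and on either strand, occurred before 14 of 66 (21.2%, against 11.7% of all). GAGGAAGT, a core bound by ETS factors such as PU.1, occurred before 6 of 66 (9.09%, against 2.13%). TATAAA occurred before 6 of 66 (9.09%, against 7.41%) and the E-box CACGTG before 1 (against 7.53%). These are counts of letters in a fixed window, with no test, and a match is not evidence of binding.

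Neighbouring genes were checked because the strand used in counting is not given in the sources used here. Of the 70 DEGs 41 share exon bases with another annotated gene, 7 of them on the same strand, against 8622 and 1407 of all 13444. The genes that overlap the leading DEGs did not pass the test themselves. *Ap1b1* beside *Nefh* had a log2 fold change of 0.13, *Col9a3* beside *Tcfl5* 0.64 (adjusted p = 0.585), *Rps6kb2* and *Coro1b* beside *Ptprcap* 0.09 and 0.10, *Dnaaf3* beside *Tnni3* -0.09 and *Mmrn2* beside *Sncg* -0.06. The DEGs were spread over 17 chromosomes, with 9 of the 1017 genes tested on chromosome 7, where *Hbb-bh1* and *Hbb-y* are neighbours, and 4 of the 477 on the X chromosome.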

How the data were processed

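RNA of CD146+ LSECs and of non-EC liver cells was sequenced from E12.5 embryos, with 3 libraries per group and 1 labelled batch. Per the study's methods, the authors trimmed repeated guanines, aligned paired reads and quantified genes in CLC Genomics Workbench, and deposited the values as TPM. The submitters' processing notes name GRCm39 (mm39). The strand of counting and the treatment of reads with several matches are not given in the sources used here. TPM keeps no depth, so depth is unknown and no counting intervals are given.

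Deposited TPM were put on the log2(TPM + 1) scale, a pseudocount of 1 TPM. Genes with at least 1 TPM in 3 or more of the 12 libraries of a fraction were kept. One limma model (limma 3.58.1, R 4.3.3, lmFit and eBayes with a trend on the mean) covered the 4 genotypes of a fraction, and a further model over 24 libraries (at least 1 TPM in 3 or more of the 24) tested the difference between fractions as an interaction, with Benjamini-Hochberg adjustment over all genes tested. A DEG had an adjusted p under 0.05 and a log2 fold change beyond 1. The steps were tested on simulated data. The authors' columns of group means were not used, and 0 columns were left unmapped.

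Same-numbered control and *Chd4-ECko* LSEC libraries deviated together from their group means, at correlations of 0.390, 0.238 and 0.112. The labels do not say what a shared number means, and control 3 also correlated at 0.0902 with *Chd4-ECko* replicate 2. A pairing is therefore not established, and replicate numbers were used only as a block in an alternative. The main model has no block.

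Named with values are *Chd4*, *Smarca4* and NuRD genes, the 25 higher DEGs with the largest log2 fold changes and all lower DEGs, the DEGs and up to 4 abundant members of each list, and *Plaur*, *Icam1* and *Vcam1*. *Jag1*, *Sox17*, *Mpo*, *Prtn3*, *Cpa3*, *Cd34*, *Myb*, *Mecom*, *Runx1*, the genes beside the fold threshold and the overlapping neighbours were chosen after their values were seen. The members and gene lists were chosen with earlier results of these data known. Upstream sequences and start sites came from GRCm39 with GENCODE vM39 (Python 3.11.15). Alternatives covered the pseudocount (0.1 TPM), filters on low values (none, or a mean TPM of 5 or more), quantile normalization, rescaling without mitochondrial and globin genes, no trend, a replicate block, only the 2 groups compared, no fold threshold, and each library left out. Counts of DEGs per gene list without each library were added after seeing the data.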

Additional observations from a re-analysis of the deposited data

Results flagged for a closer look

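The effect of *Chd4* deletion differed between LSECs and non-EC cells, by the interaction term of 1 limma model over 24 libraries at an adjusted p under 0.05, for 22 of the genes given with values. These genes were chosen for their LSEC change, which is part of this difference. Of those tested in both fractions, the LSEC effect minus the non-EC effect on the log2 scale was 4.13 for *Car1* (adjusted p = 0.000888), 2.28 for *Nefh* (0.000888), 1.88 for *Trap1a* (0.046), 1.8 for *Cpne7* (0.0181) and 1.21 for *Emilin2* (0.0125).

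Also tested in both, it was 3.35 for *Ptprcap* (adjusted p = 0.0125), 2.35 for *Samsn1* (0.000888), 2.22 for *F13a1* (0.0298), 1.44 for *Dock2* (0.0189), 1.34 for *Laptm5* (0.0167), 1.15 for *Was* (0.0308), 1.14 for *Rac2* (0.0251) and 1.09 for *Vav1* (0.0235). It was 1.07 for *Plaur* (0.046).

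The remaining 8 genes were below the filter in non-EC cells, where none was above 1.04 TPM in any library, so their difference mostly restates the LSEC change and is given as a value without its p. It was 1.77 for *Prl3b1*, 1.68 for *Cyp4b1*, 1.59 for *Thy1*, 1.41 for *Adam23*, 1.4 for *Sh2d2a*, 0.98 for *Sncg*, -1.44 for *Gja5* and -1.89 for *Ly6a*.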

How the results depend on the processing

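The 70 LSEC DEGs became 45 with no filter on low values and 46 with quantile normalization. With a library left out they ranged from 29 to 148, the higher ones from 28 to 146 and the lower ones from 1 to 3. The 4 lower DEGs became 1 with no filter, 2 with quantile normalization and 8 with the 2 groups alone. The remaining alternatives gave 52 to 105 DEGs. The 108 non-EC DEGs became 199 with a pseudocount of 0.1 TPM, 71 with no filter, 174 with quantile normalization and 40 with the 2 groups alone, and ranged from 31 to 1015 with a library left out. Their higher part (53) became 127 with a pseudocount of 0.1 TPM and ranged from 28 to 72 with a library left out. Their lower part (55) became 24 with no filter, 97 with quantile normalization, 103 with the replicate block and 4 with the 2 groups alone, and ranged from 3 to 949. The 140 genes that differed between fractions became 319 with quantile normalization and ranged from 16 to 1912, and the 35 higher LSEC DEGs among them ranged from 12 to 47. The cause was not tested.

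With replicate numbers as a block, which the labels do not establish as a pairing, the LSEC comparison gave 87 DEGs, 82 higher and 5 lower, with all 70 kept. Among the genes given with values, the block brought *Alox5ap* under an adjusted p of 0.05 (0.0475), and it did the same for the pan-leukocyte gene *Lcp1* (0.0171, against 0.0621 without the block). In non-EC cells the same numbers correlated at 0.240, 0.207 and -0.327, so they did not deviate together throughout, and the block moved 108 DEGs to 161. No value reversed its sign among the called results. Without depth, the precision of transcripts near 1 TPM cannot be stated.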
